A study of Mus musculus with 16 samples.

Results

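Mucosa of the uninflamed proximal colon was compared between mice that had lost Mcc in the intestinal epithelium and siblings that kept it, all on a control diet. The comparison takes 9 of the 16 arrays of the study, chosen by their genotype and diet labels, 3 from knockout mice (KO) and 6 from wild-type siblings (WT). All mice were C57BL/6J males with both Mcc alleles floxed (strain B6.Cg-Mcc tm1Maija/Ausb), so the WT animals carried Mcc f/f too and lacked only Cre. KO animals carried in addition Cre under the villin promoter (B6.SJL-Tg(vil-cre)997Gum/J), which acts in intestinal epithelium and leaves Mcc in the fibroblasts, immune cells, muscle and vessels of the same tissue. The control diet began at 6 weeks of age and lasted 10 weeks. The other 7 arrays, 3 WT and 4 KO, hold inflamed colon, called lesions here, of mice fed 320 ppm sulindac over the same time. They share no array with the control-diet comparison, and are used below to show how the same genes stood in other KO and WT arrays. The question the control-diet arrays address is which genes differ in mucosa without Mcc before any inflammation.

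Mcc, named for its mutation in colorectal cancers, encodes a coiled-coil scaffold protein found at the cell membrane, at junctions and in the cytoplasm of epithelial cells. It is known to associate with E-cadherin and catenins, with the polarity protein Scrib and with PDZ scaffolds of the NHERF family that tie membrane proteins to ezrin below the brush border. Overexpressed MCC is known to restrain beta-catenin signalling and the cell cycle in colon cancer lines.

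Expression is given as log2 values, in which a difference of 1 is a doubling. Values were read for 30705 genes, and array medians over all rows lay between 4.90 and 5.05, so a gene near or below that level cannot be told from background. Of the 32 tissue markers looked up, 28 were measured. All 8 measured markers of colon epithelium (Epcam, Vil1, Cdx2, Krt8, Krt20, Car1, Slc26a3, Muc2) lay at or above percentile 97.2 of brightness over all genes, and the small-intestinal genes Fabp6 and Apoa4 lay at 4.65 and 5.38 (median of the 9 arrays). The mast cell marker Cpa3 and the neutrophil marker S100a8 lay at 3.29 and 3.15. Markers of other cell types reached percentile 74.2, that of the collagen gene Col1a1. None of the 28 separated the genotypes, where all KO arrays lay above all WT arrays in 0.195% of all genes and below them in 1.2%. Their differences were -0.12 to 0.16 for colon epithelium and -0.14 to 0.14 for other cell types. In bulk tissue, fewer cells of a type and less RNA per cell cannot be told apart.

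The descriptions number the arrays, and the numbers fall in the 300s or the 700s. WT controls 1 to 3 carry numbers in the 300s, and WT controls 4 to 6 and all 3 KO controls carry numbers in the 700s. What the numbers stand for is not stated, and they are called number series here. Differences are therefore also given within the 700 series, 3 KO against 3 WT arrays. No label ties arrays to separate animals, so p-values measure the spread between these samples.

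Mcc itself was lower in each KO array than in each WT array. It read 6.57, 6.71 and 6.43 in the 3 KO arrays, and among the 6 WT controls 7.06 at the lowest, 7.13 at the median and 7.35 at the highest. The gap between the highest KO and the lowest WT array was 0.35. The means were 6.57 ± 0.14 (SD, n = 3) and 7.16 ± 0.11 (SD, n = 6), a difference of -0.60 (SE 0.08, 95% interval -0.77 to -0.42), or 0.662 of the WT level. The limma adjusted p over all genes was 0.083, which missed 0.05, and it lay between 0.0185 and 1.0 over the alternatives. It passed when arrays were weighted by their quality (0.0185) and without WT lesion 1 (0.0446). Within the 700 series the difference was -0.65, with all 3 KO arrays below all 3 WT arrays. In lesions it was -0.79 (adjusted p = 0.0032), and -0.82 with the replicate number as a block, which ended the call (adjusted p = 0.0757). The signal that remained in KO arrays was not resolved further, since cells other than epithelium keep Mcc and probes may lie outside the deleted part.

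Genes beside Mcc on its chromosome overlapped between the genotypes. Of the 16 protein-coding genes nearest in the RefSeq order, 8 on each side, 15 were measured and none separated KO from WT, with differences between -0.15 and 0.06. The immediate neighbours are Dcp2, an mRNA-decapping enzyme, and Ythdc2, an RNA helicase of the germ line, and both overlapped between genotypes. Over the 15 genes the 95% intervals reached from -0.34 to 0.33. Spink12, Gm10267, Spinkl, Spink11, Npy6r, Myot, Kcnn2 and Ticam2 had means below 4.97, the median of all rows, over the control-diet arrays. Such levels cannot be told from background, so the overlap of these genes says little.

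**Figure D1:**
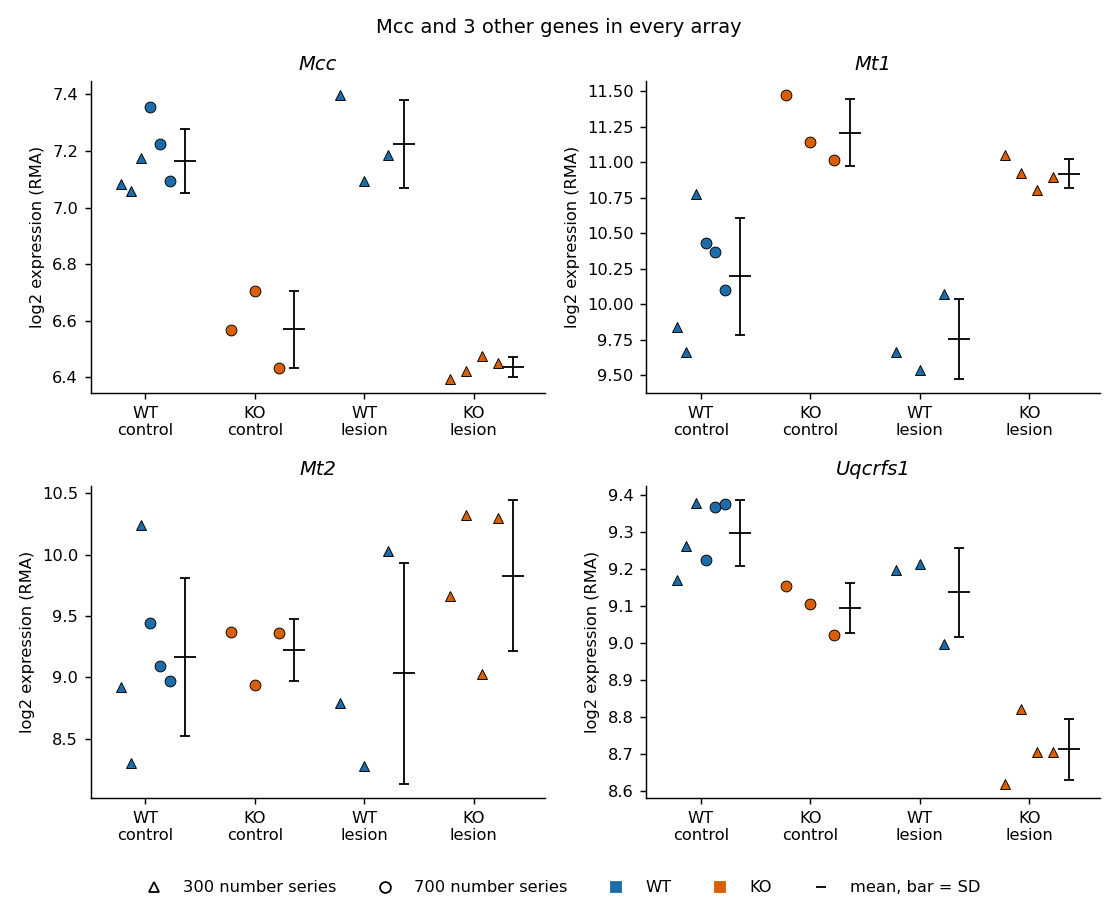
Log2 expression of Mcc, Mt1, Mt2 and Uqcrfs1 in each of the 16 arrays, by genotype and diet; each point is 1 array, triangles and circles mark number series, and the bar is the mean with its SD. The 3 KO controls lie below all WT controls for Mcc and Uqcrfs1 and above all of them for Mt1, while for Mt2 the groups overlap.

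Apart from Mcc, the genotypes were close. No gene passed the limma test at an adjusted p under 0.05 (percent called 0 of 30705 genes), against 641 genes at an unadjusted p under 0.05 (2.09%), and with array quality weights 1 gene passed, which was Mcc. The median difference over all genes was -0.02, and for genes between the 5th and 95th percentile the difference lay between -0.18 and 0.16. The unadjusted 95% interval lay within 1 either side of 0 for 30187 genes (98.3%) and within 0.5 for 27364 genes (89.1%). A difference of more than 1 was measured in 49 genes and of more than 0.5 in 176. In 60 genes (0.195%) all KO arrays lay above all WT arrays, and in 367 (1.2%) all lay below. Arrays grouped at random also leave some genes without overlap, so separation alone does not mark a gene as changed. The 2.09% is also below the share of 0.05 that the unadjusted test gives on average where no gene differs. Of the 367 lower genes 148 were above the brightness threshold of 4.97, the median of all rows, and 219 were at or below it.

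Genes of the proteins that Mcc is known to associate with overlapped between the genotypes. None of the 12 measured separated KO from WT, where 0.195% of all genes lay higher and 1.2% lower, and none reached an unadjusted p of 0.05, as 2.09% of all genes did. Their differences lay between -0.07 and 0.07 with a median of 0.01, against -0.02 over all genes. Cdh1, E-cadherin, read 11.57, 11.64 and 11.34 in KO and 11.34, 11.50 and 11.62 (lowest, median, highest) in WT, a difference of 0.02 (SE 0.07, 95% interval -0.13 to 0.18). Scrib, of basolateral polarity, differed by 0.01 (SE 0.08), and Ctnnd1, p120 catenin, by -0.06 (SE 0.10). The NHERF scaffold gene Slc9a3r1 differed by 0.01 with a wider interval of -0.37 to 0.39, and Ezr, ezrin, by 0.07 (-0.22 to 0.35). Myh10, a non-muscle myosin heavy chain, had the lowest p of the group at a difference of -0.07 (SE 0.07), which was 0.01 within the 700 series.

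Lists of junction, polarity and Wnt target genes also lay near 0. Of 26 genes of adherens junctions, tight junctions and desmosomes none separated KO from WT, against 0.195% of all genes upward and 1.2% downward. In KO 7 were higher and 19 lower, where 40.6% of all genes were higher, and the median was -0.06. Dsc2, a desmosomal cadherin, had the lowest p (-0.21, SE 0.11), but it differed by -0.06 within the 700 series. The 19 polarity genes had a median of -0.02, led by Mpp5 of the Crumbs complex at -0.17 (SE 0.16), which was 0.02 within the 700 series. The 20 Wnt target and stem cell genes had a median of -0.03 and none reached an unadjusted p of 0.05. Among them Axin2, a feedback target of beta-catenin, differed by 0.06 (SE 0.12), Lgr5, a stem cell receptor, by 0.03 (SE 0.18), and Myc by 0.21 (SE 0.25). Apical, secretory and absorptive lists lay as close to 0, with medians of -0.02 for 23 colonocyte and 20 brush border genes and 0.03 for 23 goblet genes.

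Mt1 had the largest difference of the 427 genes that separated the genotypes. Metallothioneins are small cysteine-rich proteins that bind zinc and copper, and Mt1 and Mt2 lie side by side on chromosome 8. Mt1 read 11.47, 11.14 and 11.02 in KO controls 1 to 3, and 9.66, 10.23 and 10.78 (lowest, median, highest) in WT controls. The highest WT array was WT control 3, and the lowest KO array lay 0.24 above it. The means were 11.21 ± 0.24 (SD, n = 3) and 10.20 ± 0.41 (SD, n = 6), a difference of 1.01 (SE 0.20, 95% interval 0.59 to 1.44), or 2.02-fold. It was second to Mcc by unadjusted p (1.21e-04) but did not pass over all genes (limma adjusted p = 0.9995, range over alternatives 0.1777 to 1.0). Within the 700 series the difference was 0.91.

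Mt1 was also higher in each KO lesion than in each WT lesion. It was 11.05, 10.93, 10.80 and 10.89 in KO lesions and 9.66, 9.53 and 10.07 in WT lesions. That difference was 1.16 (limma adjusted p = 0.0408), and it lost the call with every row tested, with centred arrays and with the replicate number as a block (1.13, adjusted p = 0.1749). Leaving out single arrays moved its adjusted p between 0.0097 and 0.1325.

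On the control diet Mt2 overlapped between the genotypes. It read 9.37, 8.93 and 9.36 in KO against 8.31, 9.03 and 10.24 (lowest, median, highest) in WT, a difference of 0.06 (SE 0.40, 95% interval -0.80 to 0.92), and WT control 3 was again the highest. In lesions Mt2 differed by 0.80 (adjusted p = 0.444). The interval for Mt2 ends at 0.92, short of the difference of 1.01 seen for Mt1, but it overlaps the Mt1 interval of 0.59 to 1.44. The Mt genes are near-identical in places, and how far the probes of one read the other was not tested.

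Of the other 23 measured genes of the metallothionein and zinc list, 1 separated the genotypes. Slc30a1, the zinc exporter of the plasma membrane and a target of the same metal sensor, read 7.99, 7.89 and 8.01 in KO, below all WT arrays (8.06, 8.27 and 8.41), a difference of -0.28 (SE 0.18), and of -0.16 within the 700 series. In lesions it differed by 0.21, the opposite sign. Mtf1, the metal sensor, differed by 0.02 (SE 0.11), and Slc39a4, the zinc importer of the gut, by 0.03 (SE 0.14). The median of all 25 genes was -0.01.

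The RefSeq promoters of both metallothioneins are shown because Mt1 and Mt2 neighbour each other and their values on the control diet were unlike. Each run gives the 250 bases before the annotated start on the plus strand of GRCm38.p6, and capitals mark the core of the metal response element, TGCACNC or TGCGCNC, searched on both strands.
Mt1, chr8:94178839-94179088: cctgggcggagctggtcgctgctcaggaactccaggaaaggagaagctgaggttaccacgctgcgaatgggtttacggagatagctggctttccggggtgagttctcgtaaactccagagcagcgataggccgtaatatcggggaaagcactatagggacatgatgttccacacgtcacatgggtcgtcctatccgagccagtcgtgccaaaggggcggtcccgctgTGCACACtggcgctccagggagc
Mt2, chr8:94172368-94172617: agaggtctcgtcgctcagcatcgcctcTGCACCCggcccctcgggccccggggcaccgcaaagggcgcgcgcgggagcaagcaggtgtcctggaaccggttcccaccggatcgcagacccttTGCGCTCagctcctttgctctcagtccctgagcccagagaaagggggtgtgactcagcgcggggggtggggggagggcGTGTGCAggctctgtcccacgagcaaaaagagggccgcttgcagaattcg

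The core matched once, as TGCACAC, in the Mt1 window and 3 times in the Mt2 window, which the capitals mark. Of 32851 promoters of the same length 21.4% held at least 1 match and 1.26% at least 3. The annotated start sets each window and may not be the start most used in colon, so the numbers of matches do not compare the promoters in use. A match is a description of the letters, and the arrays hold no measurement of binding.

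The 12 brighter genes without overlap that were higher in KO, taken by lowest p, were small in size apart from Mt1. Their limma unadjusted p reached 0.057, that of Sdr39u1. Lyz1, the lysozyme of Paneth cells, read 6.90, 7.10 and 6.92 in KO and 6.15, 6.41 and 6.76 (lowest, median, highest) in WT, a difference of 0.57 (SE 0.16). Its near copy Lyz2, the lysozyme of macrophages, differed by 0.49 (SE 0.23) with overlap, and how far the probes separate them was not tested. Ptprc, which encodes CD45 of all leukocytes, read 6.42, 6.50 and 6.11 in KO and 5.56, 5.85 and 6.06 in WT, a difference of 0.51 (SE 0.23). In lesions Ptprc differed by 1.10 in the same direction (adjusted p = 0.0731). Rdh19, a retinol dehydrogenase, differed by 0.33 (SE 0.12) and by 0.20 within the 700 series, Gimap6, a lymphocyte GTPase, by 0.25 (SE 0.07), and Fcamr, a receptor for IgA and IgM, by 0.24 (SE 0.08). Chchd5, Grap, Afm, M6pr-ps and Sdr39u1 differed by 0.16 to 0.20.

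On the lower side the sizes were similar. H60c, a ligand of the NK cell receptor NKG2D, read 6.88, 6.97 and 6.72 in KO and 7.11, 7.50 and 7.95 (lowest, median, highest) in WT, a difference of -0.65 (SE 0.22). WT arrays of the 300s read 7.77 to 7.95 and those of the 700s 7.11 to 7.23, and within the 700 series the difference was -0.32. Uqcrfs1, the Rieske iron-sulfur subunit of respiratory complex III, read 9.15, 9.11 and 9.02 in KO and 9.17, 9.32 and 9.38 in WT, a difference of -0.20 (SE 0.07). In lesions it differed by -0.43 (adjusted p = 0.0363, between 0.0112 and 0.132 when single arrays were left out, and 0.1668 with the replicate block). Selenow, selenoprotein W, and Vrtn, a DNA-binding protein of vertebral patterning, differed by -0.24 each (SE 0.08 and 0.07). Lce1j, Spaca3, Gabrr1, Sowaha, Olfr1417 and Trim58 differed by -0.17 to -0.30 and read 6.56 or lower in all 9 arrays.

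A pair of microRNA genes was named among the brighter genes without overlap, Mir195a on the higher side and Mir455 on the lower. Over all genes Mir195a ranked 607 by limma unadjusted p (0.0484) and Mir455 ranked 54 (0.0067). Neither passed over all genes (limma adjusted p = 0.9995 for each). Mir195a read 6.24, 6.23 and 6.20 in KO and 5.81, 6.02 and 6.17 in WT, a difference of 0.19 (SE 0.09). Mir455 read 6.67, 6.87 and 6.86 in KO and 6.94 to 7.08 in the 6 WT arrays, a difference of -0.20 (SE 0.07). In lesions they differed by 0.15 each, so Mir455 had the opposite sign there. The array reads the transcript region, not the mature RNA, so no arm is measured. Their mature sequences from RefSeq (GRCm38.p6) are shown with the seed, bases 2 to 8, in capitals, and the 4 arms hold 4 different seeds.
miR-195a-5p: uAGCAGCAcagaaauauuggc
miR-195a-3p: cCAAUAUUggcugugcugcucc
miR-455-5p: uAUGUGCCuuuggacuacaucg
miR-455-3p: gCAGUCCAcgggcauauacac

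Few of these genes separated the genotypes again in lesions. Over all genes 5.48% separated upward and 3.91% downward there, and 76 were called higher (0.248%) and 18 lower (0.0586%). Of the 12 brighter genes with the lowest p on the higher side, 10 had the same sign in lesions, against 60.0% of all genes. Among these 12 only 1, Mt1, separated the genotypes there. Of the 12 on the lower side 6 had the same sign, against 40.0% of all genes, and 2, Mcc and Uqcrfs1, separated and were called. Over all 367 lower genes 75 (20.4%) kept the sign, and over all 60 higher genes 37 (61.7%). The genes that separated in the same direction on both diets were 6 in number. They were Mcc, Mt1 and Uqcrfs1, with Lpxn, leupaxin (0.21 on the control diet and 0.27 in lesions), Gm10600 (-0.27 and -0.21) and the ribosomal pseudogene Rpl9-ps5 (-0.23 and -0.25). The last 3 read at 5.17 or less in all control-diet arrays, near or below background.

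Genes of B cells were high in 2 of the 3 KO controls and not in the third. Bank1, a B cell adaptor, read 5.36, 5.78 and 4.28 in KO controls 1 to 3, against 4.20, 4.25 and 4.47 (lowest, median, highest) in WT. Ms4a1, which encodes CD20, read 4.81, 5.56 and 3.74 against 3.71, 3.80 and 4.27. Ighm, the IgM heavy chain, read 6.45, 7.02 and 5.48 against 5.41, 5.50 and 5.73. So KO control 3 lay at the WT level for each of these genes while the other two KO controls lay above all 6 WT controls. The fitted differences were 0.84 (SE 0.23), 0.84 (SE 0.27) and 0.76 (SE 0.22), none with an adjusted p under 0.9995. Bank1 and Ms4a1 in all WT controls and KO control 3, and Ms4a1 in KO control 1, lay below the brightness threshold of 4.97, so the sizes of those differences are uncertain.

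Most other B cell genes lay in a like order. Cr2, the complement receptor of follicular B cells, differed by 0.49 (SE 0.16), Tnfrsf13c, the BAFF receptor, by 0.33 (SE 0.15), Cd79b by 0.28 (SE 0.11) and Cd22 by 0.24 (SE 0.11). A set of 12 B cell genes was grouped after their values were seen and given no test. KO control 1 lay above all WT arrays in 11 of them, KO control 2 in 11 and KO control 3 in 0. The share of all genes in which each KO array lay so by itself was not counted, so the counts per array have no direct background. KO controls 1 and 2 together lay above all WT arrays in 1003 of 30705 genes and below them in 1840. Genes of antibody-secreting plasma cells did not share the B cell order. Of 8 such genes 3 were higher in KO, with a median of -0.03. KO controls 1, 2 and 3 lay above all WT arrays in 0, 2 and 1 of them. Jchain differed by -0.11 (SE 0.50), Mzb1 by 0.13 (SE 0.10) and Xbp1 by -0.01 (SE 0.08). The SE of Jchain is wide, and Xbp1 is also a gene of the unfolded protein list, so neither bounds the plasma cells closely. Over the 24 B and plasma cell genes 0 were called, 7 had an unadjusted p under 0.05 against 2.09% of all genes, and 0 separated the genotypes. Their median was 0.13. Leaving out KO control 3 gave 0.18, and leaving out KO control 2 gave 0.05. Without KO control 3, Bank1 (1.27, limma adjusted p = 0.012) and Ighm (1.18, adjusted p = 0.02) were called, the only genes so called. That fit drops the array already seen to be low for these genes and rests on KO controls 1 and 2. Its p-values are therefore no separate support for a difference. In lesions Bank1, Ms4a1 and Ighm differed by 0.05, 0.09 and -0.05.

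Genes of class II antigen presentation lay in the same order at a smaller size. H2-Ob, the class II modulator of B cells, read 5.20, 5.25 and 4.64 in KO and 4.58, 4.66 and 4.83 in WT, a difference of 0.34 (SE 0.11), and the median of 13 class II genes was 0.13. Fibroblast and endothelial genes lay in the reverse order. The mean of 23 fibroblast genes was 6.10, 6.04 and 6.39 in KO controls 1 to 3, against 6.19 to 6.39 in WT. The mean of 19 endothelial genes was 5.45, 5.39 and 5.63 against 5.50 to 5.66. The smooth muscle and enteric lists did not follow that order, with means of 6.12, 6.41 and 6.24 for smooth muscle and 5.20, 5.23 and 5.25 for enteric neurons and glia. T and NK cell genes had a median of -0.03 over 23 genes, and their means of 5.11, 5.11 and 5.26 were also highest in KO control 3. The reverse order was not particular to these cell types. Means of xenobiotic metabolism genes (8.01, 7.91 and 8.26) and of immunoglobulin variable segments (5.64, 5.62 and 6.02) lay so too. Cell cycle genes (8.07, 8.25 and 7.66) lay in the B cell order. The part that the cell make-up of each sample has in these values was not tested.

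**Figure D2:**
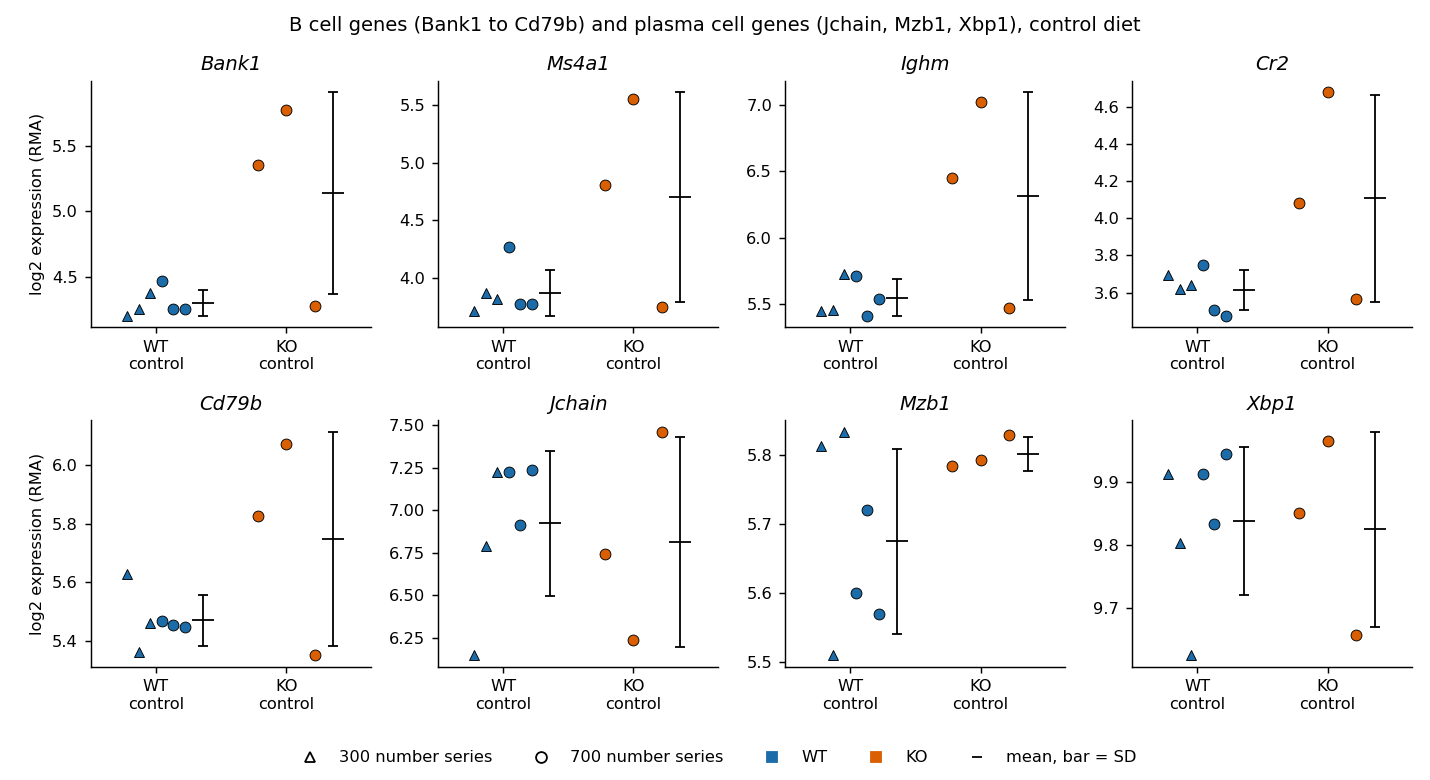
Log2 expression of 5 B cell genes (Bank1, Ms4a1, Ighm, Cr2, Cd79b) and 3 plasma cell genes (Jchain, Mzb1, Xbp1) in the 6 WT and 3 KO control-diet arrays; points are arrays and the bar is the mean with its SD. For the B cell genes KO controls 1 and 2 lie above the WT arrays and KO control 3 among or below them, while the plasma cell genes show no such split.

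Immunoglobulin variable segments differed widely between arrays in both genotypes. Of 203 measured, 0 were higher and 2 lower without overlap, against 0.195% and 1.2% of all genes. The 2 were Ighv8-9 (-0.79, SE 0.34) and Ighv8-6 (-0.59, SE 0.31), and the median was -0.02. Igkv8-30 read 5.67, 5.11 and 5.96 in KO against 5.62, 7.45 and 9.70 (lowest, median, highest) in WT, a difference of -1.89 (SE 0.72). Ighv7-3 and Ighv1-76 differed by 1.24 (SE 0.92) and 1.15 (SE 0.45), and within the 700 series by 0.35 and 0.90. Ighv7-3 differed by 0.75 without KO control 3, and Ighv1-76 by 0.52 without KO control 2. Segments of a family are near-identical in sequence, so which one was read is uncertain.

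Of the antimicrobial genes, the mucosal pentraxins Mptx1 and Mptx2 had the largest differences, 1.48 (SE 0.86) and 1.44 (SE 0.74), and both overlapped. Mptx1 read 12.70, 12.78 and 13.23 in KO and 7.91, 11.84 and 13.07 in WT, where WT control 3 was the low array. Within the 700 series, which leaves that array out, Mptx1 differed by 0.43 and Mptx2 by 0.45. Reg3b, an antibacterial lectin, ran from 6.29 to 11.49 in WT controls alone, and its difference of 0.44 (SE 0.94) is bounded by nothing narrower. Reg4, a lectin of secretory cells, differed by 0.76 (SE 0.33, unadjusted p = 0.036) with overlap, and by -0.77 in lesions.

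Cell cycle genes lay higher in KO over all arrays and not within the 700 number series. All 27 measured genes had a positive difference, with a median of 0.28 against -0.02 over all genes, and none was called or separated the genotypes. Their mean in WT controls was 7.42, 7.44 and 7.53 in the 300 series and 8.02, 8.07 and 7.77 in the 700 series. In KO controls it was 8.07, 8.25 and 7.66. Within the 700 series the median was 0.03 and 17 of 27 were positive, whereas WT arrays of the 700s lay above those of the 300s by a median of 0.58. Top2a, a topoisomerase of dividing cells, differed by 0.43 (SE 0.28) overall and by 0.18 within the 700 series, and Bub1, a spindle checkpoint kinase, by 0.41 (SE 0.33) and -0.05. Leaving out KO control 3 moved the median to 0.44, leaving out KO control 2 moved it to 0.15, and in lesions it was -0.67.

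Cholesterol synthesis genes had the same pattern. Their median over 18 genes was 0.14 overall and -0.04 within the 700 series, and WT arrays of the 700s lay 0.44 above those of the 300s. The median fell to 0.01 in the fit that leaves out KO control 1 and rose to 0.29 in the fit that leaves out KO control 3. Lss, lanosterol synthase, differed by 0.31 (SE 0.19) overall and by 0.00 within the series. The values for 70 genes of 5S ribosomal RNA, which share 37 distinct profiles because their sequences are near-identical, moved in the other direction. Their median per array was 9.71, 10.28 and 8.61 in WT controls 1 to 3, 7.71, 7.84 and 7.57 in WT controls 4 to 6 and 7.52, 7.01 and 8.38 in KO. The median difference was -0.84 overall and 0.01 within the 700 series.

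**Figure D3:**
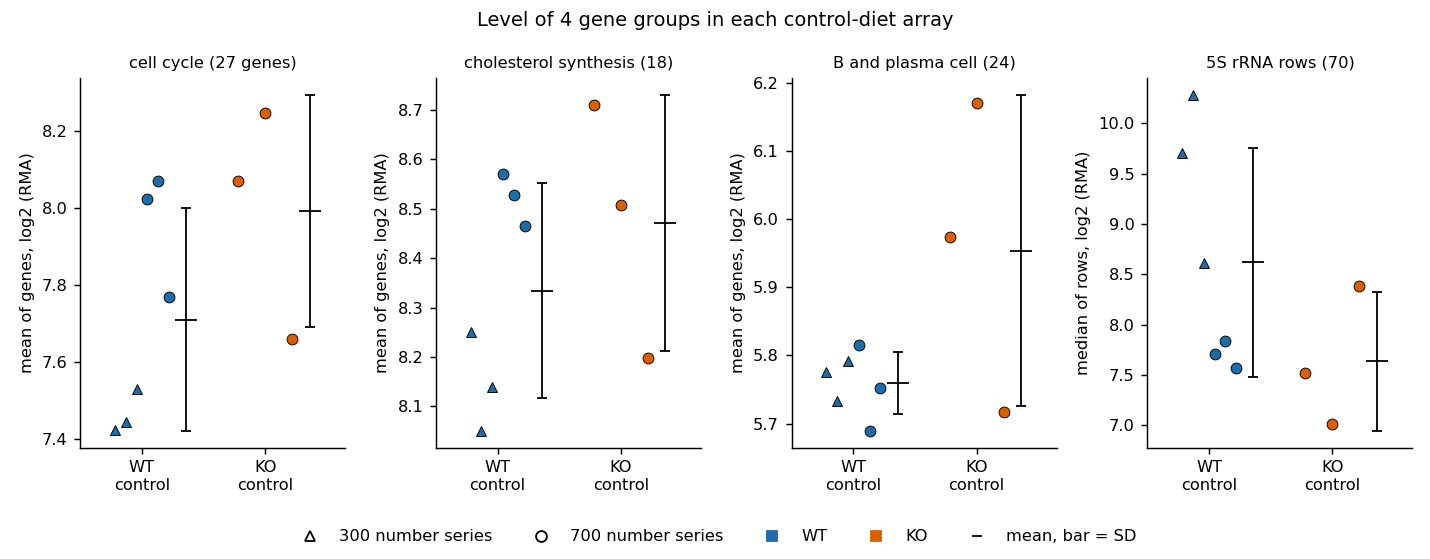
Level of cell cycle, cholesterol synthesis, B and plasma cell and 5S rRNA groups in each control-diet array (mean log2 over genes, or median for 5S rRNA); triangles are the 300 and circles the 700 number series, and the bar is the mean with its SD. Cell cycle and cholesterol genes are lower and 5S rRNA higher in the 3 WT arrays of the 300 series than in the other WT arrays, while B and plasma cell genes differ among the KO arrays.

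Genes of oxidative phosphorylation, in contrast, differed more within the series than over all arrays. Over 29 nuclear-encoded subunits the median was 0.02 with 18 positive, but within the 700 series it was -0.09 and 28 of 29 were lower in KO. The median over all genes within the series was -0.01. Other lists leaned the same way there, with 2 of 18 cholesterol synthesis genes and 3 of 23 hypoxia and glycolysis genes higher in KO. The lean was thus not particular to oxidative phosphorylation. Of the 29 subunits 4 lay below all WT arrays of the series, against 3.58% of all genes, and none was called. The list mean was 9.34, 9.18 and 9.36 in KO controls, below the 9.39, 9.44 and 9.39 of WT controls 4 to 6 and above most of the 9.13, 9.11 and 9.21 of WT controls 1 to 3. Ndufa1, a subunit of complex I, differed by -0.23 overall and by -0.33 within the series, and Cyc1, cytochrome c1, by 0.07 and -0.20. In lesions, where all arrays are of the 300 series, all 29 were lower in KO with a median of -0.26, against 40.0% of all genes that were lower there. Uqcrfs1 and Ndufs3 were called, against 0.0586% of all genes called lower. Ndufs3 (-0.40, limma adjusted p = 0.0495) lost the call in 15 of 16 fits with a single array left out, with adjusted p from 0.012 to 0.2047. The call was also lost with the replicate block (0.1119), a trended and robust variance prior (0.0781), centred arrays (0.0637) and the brightness filter (0.0501). The subunits are read in the same arrays and are not independent of each other, so their count is no test.

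More genes separated between the number series than between the genotypes. Between WT arrays of the 700s and 300s, 9.11% of genes separated upward and 9.29% downward in 3 against 3 arrays, and 3145 genes (10.2%) had an unadjusted p under 0.05. In the KO and WT arrays of the 700s, also 3 against 3, 2.04% separated upward and 3.58% downward, and 495 genes (1.61%) had an unadjusted p under 0.05. By the adjusted limma test 1 gene (0.00326%) differed between the series, Tagap1, at 0.55 (adjusted p = 0.0255). That count was 139 without WT control 3 and 0 without WT control 1, 2, 4 or 6. The first principal component of the 9 arrays held 40.4% of the variance and did not separate the genotypes. KO control 3 (20.6) lay with WT controls 1 and 2 (26.3 and 31.1), and KO controls 1 and 2 (-22.7 and -26.2) with WT controls 4 and 5 (-16.2 and -12.3). With gene-model symbols left out, the 25 genes of highest weight on this component were all of 5S ribosomal RNA. Their near-identical values enter it many times, so its share of the variance is partly that of a repeated signal. The other end held mixed genes, led by Atp12a.

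**Figure D4:**
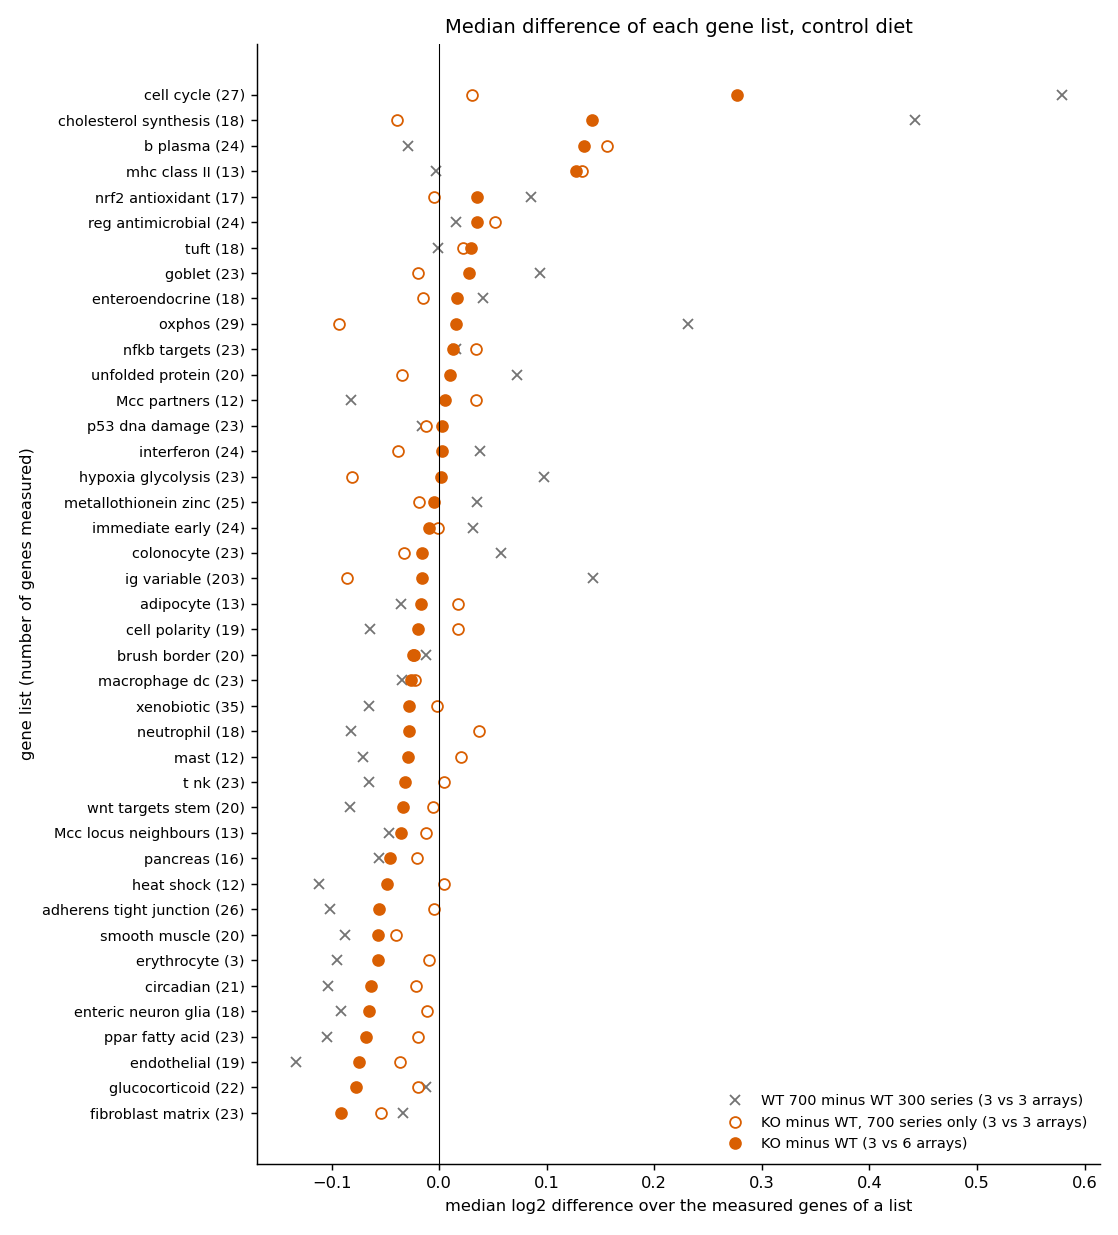
Median log2 difference over the measured genes of each of 41 gene lists on the control diet, for KO minus WT over all arrays (filled circles), KO minus WT within the 700 number series (open circles) and WT 700 minus WT 300 series (crosses); the last 2 share the WT 700 arrays. Over all arrays 4 lists lie beyond 0.1 either side of 0, and within the 700 series 2 do, those of MHC class II genes and of B and plasma cells.

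Other gene groups lay near 0. Of the 41 lists, 32 had no member that separated the genotypes, and list medians ran from -0.09 (fibroblast genes) to 0.28. Over 978 distinct listed genes 2 were higher, Lyz1 and Mt1, and 8 lower without overlap, against 0.195% and 1.2% of all genes. The 8 were Slc30a1, Uqcrfs1, Ighv8-9 and Ighv8-6, described above, and Zbtb46, a factor of dendritic cells (-0.20), Nfil3, a clock output (-0.14), Trib3, a stress kinase homologue (-0.12), and Slc16a3, a lactate exporter (-0.10). Medians were 0.01 for NF-kB targets (23 genes), 0.00 for interferon-stimulated genes (24) and for p53 targets (23), and -0.03 for neutrophil genes (18). Tnip3, an inhibitor of NF-kB signalling, had the lowest p of its list at 0.58 (SE 0.31) overall and 0.08 within the 700 series. Irf7, an interferon regulator, differed by -0.42 (SE 0.22) and -0.20 in the same order.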

How the data were processed

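RNA of 16 colon mucosa samples was hybridised to 1 array each. The deposited values are log2 expression, and the authors made them with RMA and Affymetrix Power Tools 1.16.1, per the submitters' processing notes. RMA subtracts background, normalises quantiles across arrays and sums probes per transcript cluster, which shrinks differences of dim genes and makes no call of detection. The genome build is not given in the sources used here. Of 72688 rows, 31261 carried 1 gene symbol, 1489 several and 39938 were not listed; the brightest row of each gene left 30705 genes.

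The test was that of limma 3.58.1 (R 4.3.3; lmFit and eBayes, 4 group means over all 16 arrays, two-sided), with Benjamini-Hochberg adjustment over all genes and a threshold of 0.05. A count without overlap takes genes with all KO arrays above or below all WT arrays. On simulated data of this comparison with 30705 genes, changes of 0.5, 1 and 2 were recovered in 53.7%, 91% and 98.5% of cases, and 9 unchanged genes were called. The simulated noise was normal and independent between genes and arrays, with no number series and no array standing apart. In the same data 67, 67 and 66 genes were changed by these sizes at once. That makes the adjusted threshold easier to pass than where few genes differ. The shares may therefore not hold for the real arrays, where Mt1 at 1.01 had a limma adjusted p of 0.9995. They do not show how many real changes the test missed.

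Members, lists and the rule for named genes were chosen with earlier results of these data known, so lists are described by counts and medians without a test. Named genes are Mcc, called genes, the 12 with the lowest p in each direction among brighter genes without overlap, the 6 largest in each direction, and per list up to 3 members without overlap or else the 1 with the lowest p. Lpxn, Gm10600, Rpl9-ps5, Tagap1, and the list members named beyond this rule (such as Ms4a1, Cr2 and Bub1) were chosen after their values were seen. Samples with the same replicate number did not deviate together (r = -0.32, -0.34 and -0.24), so the numbers were not taken as pairs. Alternatives covered array choice, number series, array weights, variance prior, dim genes, rows, scaling and single arrays. The number of arrays limits the precision.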

Additional observations from a re-analysis of the deposited data

Results flagged for a closer look

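In 76 values tested for 1 array standing apart from the rest of its group, 6 were found, where chance alone marks about 1 in 20. WT control 3 read 7.91 for Mptx1 against 11.55 to 13.07 in the other WT controls, and 6.6 for Mptx2 against 9.81 to 11.34. The same array had the highest mean of the PPAR and fatty acid oxidation list, 7.98 against 7.47 to 7.55, and of the glucocorticoid-induced list, 7.78 against 7.44 to 7.56. WT control 1 read 5.55 for Spaca3 against 5.32 to 5.39, and 5.68 for Trim58 against 5.54 to 5.59. The interaction of genotype and diet passed in 0 of 35 named genes by limma (lowest adjusted p = 0.3958).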

How the results depend on the processing

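On the control diet 0 genes were called under every alternative but array weights (1 gene) and single arrays left out (0 to 2, the 2 without KO control 3). Without KO control 3 the genes at an unadjusted p under 0.05 numbered 1657 against 641. Mcc kept its direction throughout and was called with array weights (-0.59) and without WT lesion 1, with -0.66 to -0.53 when single arrays were left out. With replicate number as a block, Mcc differed by -0.56 (adjusted p = 0.769) and 0 genes were called, against 2 in lesions. Genes without overlap numbered 427, and 1723 within the 700 series, 184 above the brightness threshold, 1126 over all rows and 546 to 2843 with an array left out; fewer arrays or other rows change that count by construction. The 30187 genes within 1 became 19110 above the brightness threshold and 70088 over all rows. Genes called in lesions (94) were 58 with the series as a covariate, 714 with array weights, 5 over all rows, 26 with centred arrays and 4 to 1697 with an array left out (1697 without KO lesion 3). The series itself called 1 gene, 2 in the 9-array fit and 0 to 139 with an array left out. The sign of n-R5s134 reversed to 0.0111 within the 700 series and with the series as a covariate in 9 or 16 arrays. Of the list medians 6 moved beyond the spread of WT arrays and 1142 did not. The causes of these shifts were not tested.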
